A study of Mus musculus with 8 samples.

Results

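The genes described are 10 secreted signals of the preadipocyte, namely the chemokines Cxcl12, Cxcl1, Cxcl5, Cx3cl1, Ccl2, Ccl7 and Ccl8 and the cytokines Il6, Lif and Csf1. They were picked by name, with earlier results of these data known. Each was found through the gene identifier of its row, 10 of the 23699 genes that every library listed. RNA was sequenced from 3T3-L1, a line of mouse fibroblasts with the ability to become adipocytes, 2 days after the cultures had become confluent, as preadipocytes. There were 4 libraries from cells given Fto siRNA, a mix of 3 Stealth siRNAs against Fto, and 4 from cells given control siRNA, a mix of 3 that target nothing. Both groups received 40 nM siRNA in a Lipofectamine reagent for 24 h before confluence, and both grew in DMEM with 25 mM glucose and 10% newborn calf serum. The model is 1 cell line, and a knockdown leaves part of the mRNA in place. The labels do not say that the libraries came from separate cultures, so the p-values measure the spread between these libraries, which may be technical. In bulk RNA, fewer cells that make a transcript and less of it per cell cannot be told apart.

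Chemokines are small secreted proteins that attract cells through G protein-coupled receptors, and they are sorted by their cysteine spacing into CXC, CC and CX3C types. Fibroblasts and preadipocytes of fat tissue are a source of several of them, above all of signals that recruit monocytes and neutrophils or hold progenitor cells in place. Il6 and Lif act through the shared receptor chain gp130, and Csf1 is the growth factor that keeps macrophages alive.

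Fto, the RNA demethylase gene that the siRNAs target, was at 13.8, 10.7, 12.3 and 11.6 FPKM with Fto siRNA, against 54.6, 55.4, 56.2 and 55.2 FPKM with control siRNA. FPKM count fragments per length of transcript and per mapped fragments of the library. The groups did not overlap, and an exact two-sided permutation test gave p = 0.0286, the smallest that 70 arrangements allow. Depth ranged from 18.9 to 21.8 M fragments in the Fto siRNA libraries and from 20.5 to 24.4 M in the control siRNA libraries, worked out from the deposited intervals. The 11 fibroblast and preadipocyte markers together summed to 9618 to 11089 FPKM with Fto siRNA and 8851 to 9619 FPKM with control siRNA. The macrophage marker Emr1 was listed at 0 in all 8 libraries, and Ptprc, the marker of blood-derived cells, was at most 0.00949 FPKM with Fto siRNA and 0.00863 FPKM with control siRNA.

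Of the 10 genes, 5 fell with Fto siRNA and 0 rose. The 5 were Cxcl12, Ccl2, Cxcl1, Cxcl5 and Csf1, and their mean FPKM was 8.39 to 21.2% below that of the control siRNA libraries. Ccl8, Ccl7 and Cx3cl1 did not pass the test, and Il6 and Lif lay below the level at which genes were tested. A gene was tested where its mean over the 8 libraries was at least 1 FPKM, which 8 of the 10 reached, and it was called where limma's p, adjusted over all 11398 tested genes by Benjamini-Hochberg, was below 0.05. Fold changes are Fto siRNA over control siRNA on the log2(FPKM + 0.5) scale, on which low genes change by less than their true ratio. At an unadjusted limma p below 0.05, 0 of the 8 tested genes were higher and 6 were lower, against 12.5% higher and 19.9% lower of all tested genes.

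Of the 8, 62.5% were called lower and 0 higher, against 12.3% lower and 6.97% higher (19.3% in either direction) of all tested genes. The 8 belong to a set chosen with earlier results of these data known, so such shares describe them and test nothing. The split of all calls was 1081 higher and 1220 lower under median-ratio scaling, against 794 higher and 1401 lower in the FPKM as deposited. In 4 of the 8, all lower, the groups did not overlap, and of all tested genes 15.1% were lower and 9.08% higher without overlap, 24.2% together. The median log2 fold change was -0.23 over the 8 and -0.02 over all tested genes. The count of 5 varied with the loss of 1 library. It was 3 without Fto siRNA replicate 1 and 2 without Fto siRNA replicate 3, control siRNA replicate 2 or control siRNA replicate 4. Cxcl12 and Ccl2 were called in each of these fits.

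**Figure D1:**
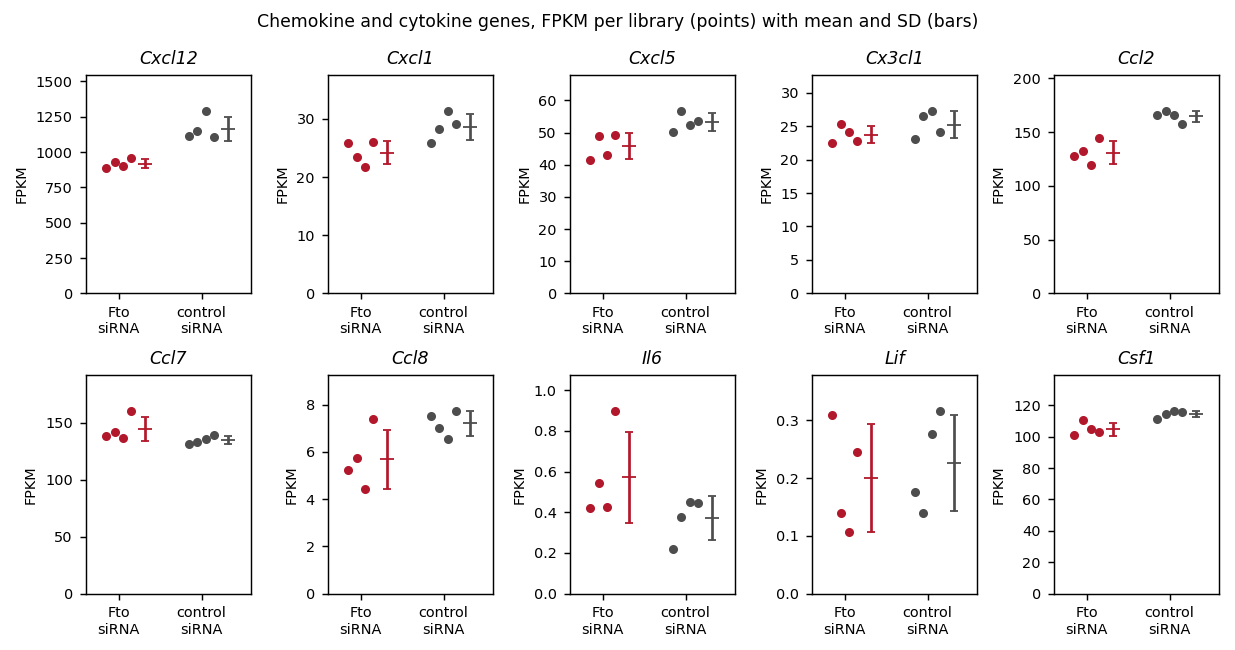
FPKM of the 10 genes in each of the 4 Fto siRNA and 4 control siRNA libraries (points, in replicate order), with the group mean and SD (bars) and each vertical axis starting at 0. The points of Cxcl12, Ccl2, Cxcl5 and Csf1 lie lower with Fto siRNA with no overlap, while those of Cxcl1, Ccl8, Cx3cl1, Ccl7, Il6 and Lif overlap.

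The 10 genes spanned a wide range of levels, and their order was led by Cxcl12, at rank 34 of all listed genes by mean FPKM. Cxcl12 was followed by Ccl2 and Ccl7, then Csf1, Cxcl5, Cxcl1 and Cx3cl1, Ccl8, Il6 and Lif. The ranges of Ccl2 and Ccl7 overlapped, as did those of Cxcl1 and Cx3cl1 and those of Il6 and Lif, and every other pair of neighbours in this order was apart in all 8 libraries. Cxcl1 stood above Cx3cl1 in 2 of 4 Fto siRNA libraries and in 4 of 4 control siRNA libraries, and Il6 stood above Lif in all 8. The 10 genes together summed to 1348 to 1472 FPKM with Fto siRNA and 1632 to 1828 FPKM with control siRNA. Cxcl12 held 65.0 to 66.5% of that sum in the Fto siRNA libraries and 67.7 to 70.6% in the control siRNA libraries.

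**Figure D2:**
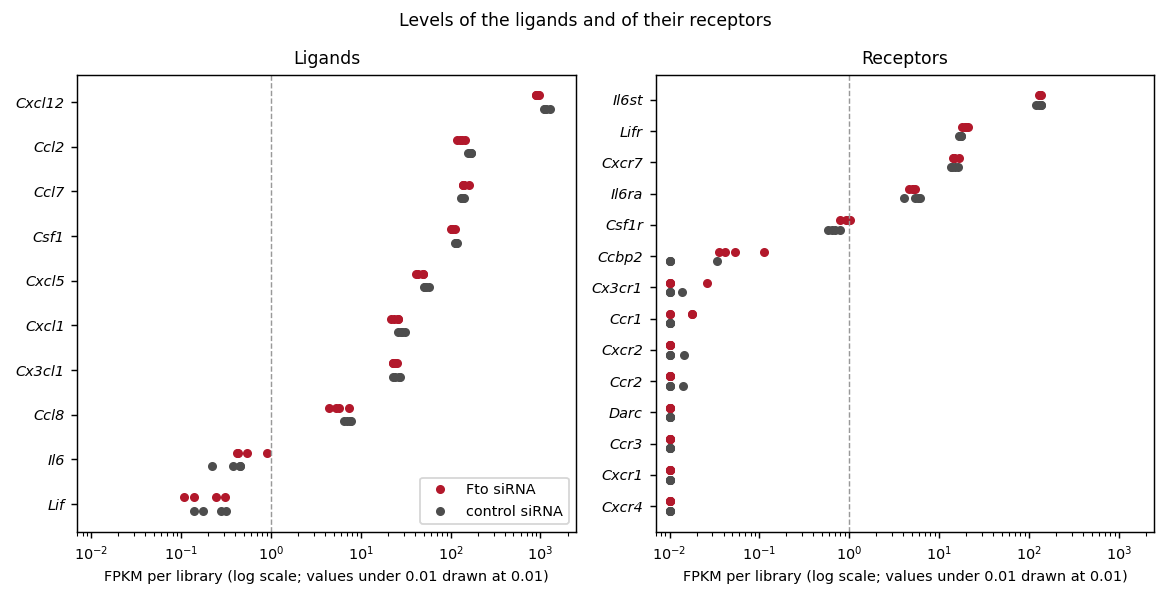
FPKM per library on a log axis for the 10 ligands (left) and for receptors of these ligands (right), Fto siRNA above control siRNA in each row, with values under 0.01 drawn at 0.01 and a dashed line at 1 FPKM. Cxcl12 is at 885 to 1291 FPKM, while its receptor Cxcr4 and most other chemokine receptors sit at the left edge in both groups.

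The sequences upstream of the start sites differed among the members in the motifs they held. RefSeq promoter windows of GRCm38.p6 matched 7 of the 10 genes. In these, the 250 bases before the start were searched on both strands for 6 short motifs. Cxcl5, Ccl2 and Ccl7 had no window and were not searched. GC boxes (GGGCGG), which the factor Sp1 binds, occurred in Cxcl12, Cx3cl1 and Csf1, against 32.7% of 32851 windows. Cxcl12 held 5 of them, 2 of which overlap by 1 base. A 10-base NF-kB motif with any base at the fifth position, bound by the factor that inflammatory signals activate, occurred as GGGAATTTCC in Cxcl1, as GGGATTTTCC in Il6 and on the other strand as GGAAAGTCCC in Csf1, against 0.356% of windows. The upstream stretches of Cxcl12 (chr6:117168335-117168534, + strand), with GC boxes in capitals, and of Cxcl1 (chr5:90891125-90891244, + strand), Il6 (chr5:30012994-30013113, + strand) and Csf1 (chr3:107760470-107760649, - strand), with the NF-kB motif in capitals, are given 5′ to 3′ to show where the matches lie.
Cxcl12: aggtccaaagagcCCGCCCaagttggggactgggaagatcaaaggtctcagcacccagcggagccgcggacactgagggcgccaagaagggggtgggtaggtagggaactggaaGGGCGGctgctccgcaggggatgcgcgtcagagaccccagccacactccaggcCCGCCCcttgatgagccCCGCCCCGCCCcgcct
Cxcl1: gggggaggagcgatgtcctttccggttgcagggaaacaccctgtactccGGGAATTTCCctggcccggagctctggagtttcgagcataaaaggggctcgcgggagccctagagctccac
Il6: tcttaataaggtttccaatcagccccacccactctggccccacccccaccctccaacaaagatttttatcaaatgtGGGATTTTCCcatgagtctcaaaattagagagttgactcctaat
Csf1: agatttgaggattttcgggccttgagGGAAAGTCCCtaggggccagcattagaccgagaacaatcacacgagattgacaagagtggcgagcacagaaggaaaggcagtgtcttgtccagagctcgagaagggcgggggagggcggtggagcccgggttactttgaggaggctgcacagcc

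In Cxcl1 the NF-kB match lay 71 to 62 bases before the start, in Il6 44 to 35 and in Csf1 154 to 145. Of these carriers, Il6 was at the floor and untested, Cxcl1 fell with an overlap of the groups and Csf1 fell by the least of the 5. The called genes Cxcl5 and Ccl2 had no window, and the part of the motif in the values was not tested. The AP-1 motif TGANTCA occurred in Il6 and Lif (6.75% of windows), the C/EBP motif TTGCNNAA in Il6 (9.56%), TATAAA in Cx3cl1 and Ccl8 (12.4%) and the STAT motif TTCNNNGAA in 0 of the 7 (7.02%). A match is a run of letters and not a measured binding site.

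AU-rich elements in the 3′ UTR, which shorten the life of many cytokine mRNAs, also differed among the members. The nonamer TTATTTATT occurred in Cxcl1, Cx3cl1 and Lif, against 8.23% of 9807 tested genes with an annotated 3′ UTR, and the shorter TATTTAT in 7 of the 10, against 30.9%. The pentamer ATTTA occurred 11.8 times per kb in Cxcl1, 5.995 in Il6 and 0.771 in Cxcl12, against a median of 1.36 over the tested genes. Apart from the AU-rich elements, the overlapping words GACCTTA and ACCTTAA were searched for. Either of them occurred in Cxcl12 and Csf1, against 13.0%, and not in the called members Cxcl1, Cxcl5 and Ccl2. Other genes named here that fell also held them, namely Mmp2, Ptpn11, Il1rl1, Tlr4, Ripk1 and Pdgfra. Mmp14, Irak4, Tlr3 and Il33 were among those that fell without them. The words are thus not particular to these members, and their part in the values was not tested. Sites of the nonamer in Cxcl1, beginning at bases 102 and 395 of its 592-base 3′ UTR, and of ACCTTAA in Cxcl12 and Csf1 are given with their flanks, the word in capitals, to show the letters that were matched.
Cxcl1 at 102: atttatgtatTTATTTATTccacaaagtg
Cxcl1 at 395: agaatgtcagTTATTTATTgaaagtcgtc
Cxcl12: gtctctccctACCTTAAtcccccattc
Csf1: ctacccctccACCTTAAacatatatta

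Of the carriers of the nonamer, Cxcl1 fell (log2 fold change -0.24, limma interval -0.39 to -0.08). Cx3cl1 was not called (-0.09, limma interval -0.22 to 0.04), and Lif was untested. The intervals of Cxcl1 and Cx3cl1 overlap, so no difference between these carriers is shown. Ccl2, which fell, and Ccl7, which did not pass, both lacked the nonamer and TATTTAT. They held 1 and 2 ATTTA in 3′ UTRs of 275 and 435 bases. The part of the AU-rich elements in the values was not tested.

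Cxcl12, whose upstream stretch held the 5 GC boxes, encodes the chemokine that retains blood stem cells in their niche and lies at chr6:117118553-117131386 (mm9). It was at 885, 931, 900 and 958 FPKM with Fto siRNA, against 1116, 1149, 1291 and 1108 FPKM with control siRNA. Each Fto siRNA library was below the lowest control siRNA library, and the highest value was that of control siRNA replicate 3. The means were 918 ± 32.5 FPKM with Fto siRNA and 1166 ± 85.3 FPKM with control siRNA (SD, n = 4 each), a difference of -21.2%. The log2 fold change was -0.34 (SE 0.055, 95% interval -0.46 to -0.22, limma adjusted p = 0.0025), and it kept its call in every alternative tried. About 29712 to 49490 fragments per library stood behind these values, and the counting error of 1 library averaged 5.03 FPKM with Fto siRNA and 5.47 FPKM with control siRNA.

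The neutrophil attractants Cxcl5 and Cxcl1 both fell. Cxcl5 (chr5:91188325-91190651, mm9) was at 41.6, 49.0, 43.1 and 49.3 FPKM with Fto siRNA, against 50.1, 56.7, 52.4 and 53.7 FPKM with control siRNA. The groups were apart, by a narrow gap between 49.3 FPKM in Fto siRNA replicate 4 and 50.1 FPKM in control siRNA replicate 1. The means were 45.7 ± 3.97 FPKM with Fto siRNA and 53.2 ± 2.77 FPKM with control siRNA (SD, n = 4 each), and the log2 fold change was -0.22 (SE 0.062, limma adjusted p = 0.0325). Cxcl1 (chr5:91320271-91322141, mm9), with the NF-kB match and the AU-rich 3′ UTR, was at 25.8, 23.4, 21.7 and 26.0 FPKM with Fto siRNA, against 25.8, 28.3, 31.4 and 29.1 FPKM with control siRNA. The groups overlapped, since Fto siRNA replicates 1 and 4 were at the level of control siRNA replicate 1. The means were 24.2 ± 2.05 FPKM with Fto siRNA and 28.6 ± 2.30 FPKM with control siRNA (SD, n = 4 each), and the log2 fold change was -0.24 (SE 0.070, limma adjusted p = 0.0388).

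Both calls depend on single libraries. That of Cxcl5 was lost without Fto siRNA replicate 1 or 3 or control siRNA replicate 2 or 4, where limma's adjusted p was 0.0733 to 0.0918. That of Cxcl1 was lost without Fto siRNA replicate 2 or 3 or control siRNA replicate 2, 3 or 4, where it was 0.0713 to 0.0941. Cxcl1 rested on 301 to 505 fragments per library.

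Cx3cl1 (chr8:97296080-97306326, mm9) encodes fractalkine, a membrane-bound chemokine that is shed from the cell surface and attracts monocytes and T cells. It was at 22.5, 25.4, 24.1 and 22.8 FPKM with Fto siRNA, against 23.1, 26.5, 27.3 and 24.1 FPKM with control siRNA. The groups overlapped over most of their range. The log2 fold change was -0.09 (SE 0.059, 95% interval -0.22 to 0.04, limma adjusted p = 0.343). That of Cxcl12 was -0.34 (95% interval -0.46 to -0.22), and a difference between these genes was not tested.

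The CC chemokines Ccl2, Ccl7 and Ccl8, which attract monocytes and other leukocytes, are neighbours on chromosome 11. Ccl2 (chr11:81849079-81850954, mm9) was at 128, 132, 119 and 145 FPKM with Fto siRNA, against 166, 170, 166 and 157 FPKM with control siRNA. All 4 Fto siRNA libraries were below all 4 control siRNA libraries. The means were 131 ± 10.6 FPKM with Fto siRNA and 165 ± 5.21 FPKM with control siRNA (SD, n = 4 each), a difference of -20.5%. The log2 fold change was -0.33 (SE 0.055, 95% interval -0.45 to -0.21, limma adjusted p = 0.00265), called in every alternative tried.

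Ccl7 (chr11:81859214-81861025, mm9) begins 8.26 kb after the end of Ccl2 and did not pass the test. It was at 139, 142, 137 and 160 FPKM with Fto siRNA, against 132, 133, 136 and 139 FPKM with control siRNA. The groups overlapped at their edges, with Fto siRNA replicate 4 the highest. The means were 145 ± 10.6 FPKM with Fto siRNA and 135 ± 3.21 FPKM with control siRNA (SD, n = 4 each), and the log2 fold change was 0.10 (SE 0.049, 95% interval -0.01 to 0.21, limma adjusted p = 0.209).

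Within a library, Ccl7 stood above Ccl2 in 4 of 4 Fto siRNA libraries and below it in 4 of 4 control siRNA libraries. The ratio of Ccl7 to Ccl2 FPKM was 1.08, 1.08, 1.15 and 1.11 in the Fto siRNA libraries, against 0.794, 0.786, 0.817 and 0.884 in the control siRNA libraries. It averaged 1.10 ± 0.0327 with Fto siRNA and 0.820 ± 0.0442 with control siRNA (SD, n = 4 each), a difference of 0.43 on the log2 scale. The exact two-sided permutation test gave p = 0.0286, the smallest that 70 arrangements allow, and 0.0858 after Benjamini-Hochberg adjustment over the 3 ratios of neighbours that were compared. These ratios were chosen after the values had been seen. The p-value of Ccl7 to Ccl2 thus followed from a separation already known and is no support for it. The ratio of Ccl8 to Ccl2 differed by -0.03 on the log2 scale (exact permutation p = 0.8) and that of Cxcl5 to Cxcl1 by 0.02 (p = 0.83), both within the spread of the libraries.

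**Figure D3:**
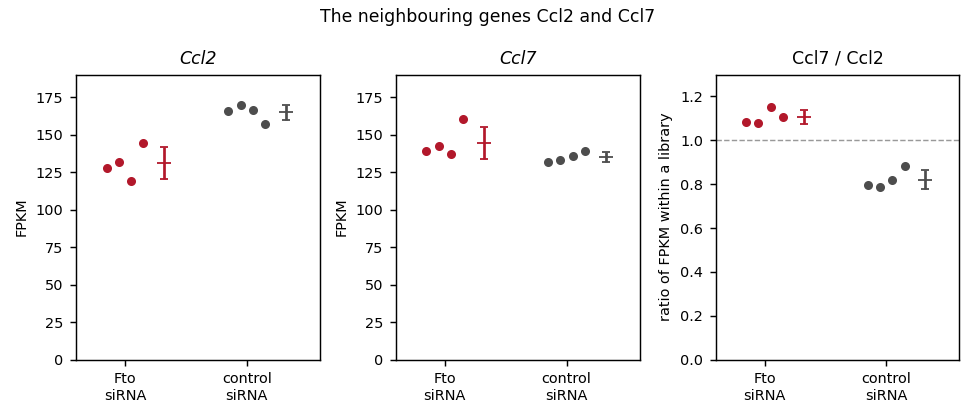
FPKM of Ccl2 and of Ccl7 and the ratio of Ccl7 to Ccl2 within each library, for the 4 Fto siRNA and 4 control siRNA libraries (points), with the group mean and SD (bars) and a dashed line at a ratio of 1. The ratio is 1.08 to 1.15 with Fto siRNA and 0.786 to 0.884 with control siRNA.

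Ccl8 (chr11:81928687-81930301, mm9), a further monocyte attractant, begins 67.7 kb beyond Ccl7 and was far lower. It was at 5.23, 5.72, 4.43 and 7.38 FPKM with Fto siRNA, against 7.51, 7.01, 6.56 and 7.71 FPKM with control siRNA. Fto siRNA replicates 1 to 3 were below all control siRNA libraries, and Fto siRNA replicate 4 was among them. The log2 fold change was -0.33 (SE 0.121, 95% interval -0.60 to -0.06), the size of that of Ccl2, but with a wider spread it did not pass (limma adjusted p = 0.0816). Without Fto siRNA replicate 4 it was -0.46 and was called (limma adjusted p = 0.0104). Only 25.0 to 52.7 fragments per library covered Ccl8, and the counting error of 1 library averaged 0.951 FPKM with Fto siRNA and 1.04 FPKM with control siRNA.

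The other tested genes within 500 kb of these chemokines gave a mixed picture. Ccl11, the eosinophil attractant between Ccl7 and Ccl8, was at 1.40, 2.72, 2.22 and 2.30 FPKM with Fto siRNA, against 2.34, 2.92, 2.91 and 2.72 FPKM with control siRNA, and its log2 fold change was -0.30 (limma adjusted p = 0.186). Beyond Cxcl1 on chromosome 5, Ereg, which encodes the growth factor epiregulin, averaged 6.64 ± 0.171 FPKM with Fto siRNA and 8.52 ± 0.724 FPKM with control siRNA (SD, n = 4 each) and fell without overlap (log2 fold change -0.33, limma adjusted p = 0.00415). The folate enzyme gene Mthfd2l between them differed by -0.08 on the log2 scale (limma adjusted p = 0.379), and the predicted gene Gm9958 by 0.03 (0.908). Cxcl2 and Cxcl3, the closest relatives of Cxcl1, lie on either side of it and were listed at 0 in all 8 libraries.

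Csf1 (chr3:107543966-107563387, mm9), the growth factor of macrophages, with both an NF-kB match and GC boxes upstream, was at 101, 110, 105 and 103 FPKM with Fto siRNA, against 112, 114, 116 and 116 FPKM with control siRNA. The groups did not overlap, and the gap between Fto siRNA replicate 2 and control siRNA replicate 1 was narrow. The means were 105 ± 4.05 FPKM with Fto siRNA and 114 ± 2.05 FPKM with control siRNA (SD, n = 4 each), a difference of -8.39%. The log2 fold change was -0.13 (SE 0.035, 95% interval -0.20 to -0.05, limma adjusted p = 0.0312), the smallest fall among the 5. The call was lost without Fto siRNA replicate 1, 3 or 4 or control siRNA replicate 2 or 4, where limma's adjusted p was 0.0709 to 0.0819. It was also lost under median-ratio scaling (0.0536) and under quantile normalization (0.0568).

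Il6 and Lif, the members that signal through gp130, were near the floor of detection. Il6 (chr5:30339701-30346508, mm9) was at 0.422, 0.545, 0.425 and 0.897 FPKM with Fto siRNA, against 0.219, 0.377, 0.450 and 0.446 FPKM with control siRNA. Those values stood for about 8, 10, 7 and 17 fragments with Fto siRNA and 4, 8, 8 and 9 with control siRNA. The groups overlapped, and Fto siRNA replicate 4 was the highest. Lif (chr11:4157571-4172517, mm9) was at 0.310, 0.140, 0.107 and 0.246 FPKM with Fto siRNA, against 0.175, 0.139, 0.276 and 0.316 FPKM with control siRNA, and the groups overlapped throughout. With no filter on low values, limma's adjusted p was 0.311 for Il6 and 0.814 for Lif, so no difference was detectable at this depth in either.

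The receptors of these ligands were mostly listed at or near 0. Cxcr4, the main receptor of Cxcl12, Cxcr1, Ccr3 and the decoy receptor Darc were listed at 0 in all 8 libraries. Cxcr2, the receptor of Cxcl1 and Cxcl5, Cx3cr1, the receptor of Cx3cl1, Ccr1 and Ccr2 were at most 0.0263 FPKM with Fto siRNA and 0.0146 FPKM with control siRNA. The decoy receptor Ccbp2 was at most 0.111 FPKM with Fto siRNA and 0.0338 FPKM with control siRNA. The chemokine receptor that passed the filter was Cxcr7, now named Ackr3, which binds and removes Cxcl12. It averaged 15.03 ± 1.06 FPKM with Fto siRNA and 14.8 ± 1.25 FPKM with control siRNA (SD, n = 4 each), a log2 difference of 0.02 (limma adjusted p = 0.84).

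The receptor chains of Il6 and Lif were well covered. Il6st, which encodes gp130, averaged 133 ± 1.93 FPKM with Fto siRNA and 131 ± 7.90 FPKM with control siRNA (SD, n = 4 each) and was not called (limma adjusted p = 0.796). Il6ra averaged 5.07 ± 0.294 FPKM with Fto siRNA and 5.38 ± 0.888 FPKM with control siRNA and was not called (0.699). Lifr was at 19.5, 20.1, 20.95 and 18.0 FPKM with Fto siRNA, against 17.5, 17.1, 16.8 and 17.5 FPKM with control siRNA, with no overlap. Its log2 fold change was 0.18 (SE 0.047, limma adjusted p = 0.0232), and the call was lost without Fto siRNA replicate 2 or 3 or control siRNA replicate 2 (up to 0.0624). Csf1r, the receptor of Csf1, was below the filter and untested, at 0.985, 0.796, 1.03 and 0.921 FPKM with Fto siRNA, against 0.576, 0.643, 0.686 and 0.783 FPKM with control siRNA. The groups of Csf1r did not overlap.

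The rest of the chemokine and cytokine system was described through 8 lists of 117 genes, also chosen with earlier results of these data known. Of the 117, 68 were tested. Of these, 5 rose (7.35%) and 12 fell (17.6%), against 6.97% and 12.3% of all tested genes. The 12 include Ccl6, which passed the filter through its level with control siRNA, and numbered 8 to 10 with 1 library left out. Such shares describe the lists and test nothing. Of 13 other CXC, CX3C and XC chemokines, 2 were tested and Cxcl16, a membrane-bound chemokine, fell. Cxcl16 averaged 1.17 ± 0.320 FPKM with Fto siRNA and 1.75 ± 0.191 FPKM with control siRNA (SD, n = 4 each), with overlap, and its log2 fold change was -0.44 (limma adjusted p = 0.0428). Its locus overlaps that of Zmynd15, and its call was lost without any 1 of Fto siRNA replicates 1, 2 and 4 and control siRNA replicates 1 to 3, with no filter on low values and under quantile normalization (up to 0.114). Cxcl10, the interferon-induced T cell attractant, had a log2 fold change of -0.34 and was not called (limma adjusted p = 0.232).

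Of 18 other CC chemokines, 7 were tested and Ccl6 and Ccl9, close relatives that attract myeloid cells, fell, beside 12.3% of all tested genes. Ccl6 was at 0.869, 0.780, 0.782 and 0.943 FPKM with Fto siRNA, against 1.21, 2.06, 1.33 and 1.42 FPKM with control siRNA. The groups were apart, and the log2 fold change was -0.56 (limma adjusted p = 0.0152). Ccl6 passed the filter through its level with control siRNA, since its mean with Fto siRNA was 0.843 FPKM, so its fall is not read as support for the other chemokines. The Ccl6 locus overlaps that of E230016K23Rik, so reads of the pair cannot be told apart. Ccl9 averaged 6.99 ± 0.885 FPKM with Fto siRNA and 8.49 ± 0.338 FPKM with control siRNA (SD, n = 4 each), also without overlap, and its log2 fold change was -0.27 (limma adjusted p = 0.036). The call of Ccl9 was lost in 7 of 8 fits that left out 1 library, that without Fto siRNA replicate 4 being the exception, and also with no filter on low values and under quantile normalization (up to 0.0856).

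Of 24 other cytokines, 10 were tested, 1 rose and 1 fell, beside 6.97% higher and 12.3% lower of all tested genes. Clcf1, a gp130 ligand of the same family as Il6 and Lif, was at 18.0, 17.6, 19.6 and 22.4 FPKM with Fto siRNA, against 13.4, 15.7, 16.4 and 14.7 FPKM with control siRNA. All Fto siRNA libraries were above all control siRNA libraries, and Clcf1 rose (log2 fold change 0.36, limma adjusted p = 0.0136). Il33, an alarmin cytokine kept in the nucleus of stromal cells, was at 1.06, 1.56, 1.10 and 1.37 FPKM with Fto siRNA, against 1.74, 2.95, 2.12 and 2.67 FPKM with control siRNA. The groups of Il33 were apart, and it fell (log2 fold change -0.68, limma adjusted p = 0.0101).

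**Figure D4:**
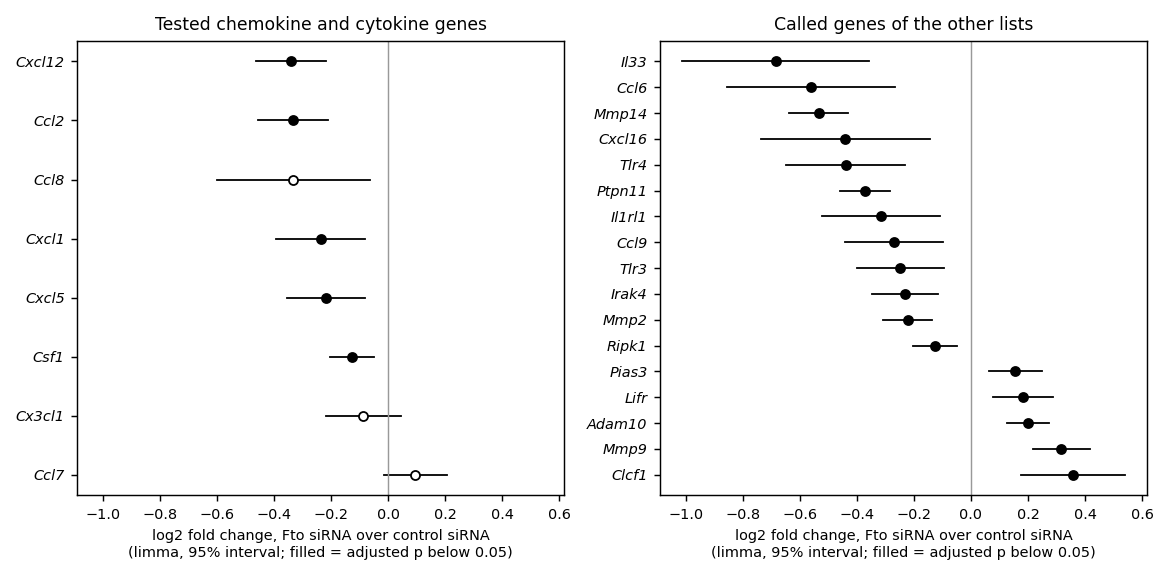
Log2 fold change of Fto siRNA over control siRNA with its 95% interval from limma for the 8 tested chemokine and cytokine genes (left) and for the called genes of the other lists (right), filled where the adjusted p was below 0.05. Cxcl12 at -0.34 and Ccl2 at -0.33 are the lowest of the 8 with Ccl8, whose wider interval is drawn open, and Ccl7 at 0.10 stands on the other side of 0.

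Of 8 proteases that shed or cut the members, or regulators of these, 7 were tested, 2 rose and 2 fell, beside 6.97% higher and 12.3% lower of all tested genes. Adam10, a sheddase of Cx3cl1, averaged 103 ± 2.04 FPKM with Fto siRNA and 89.7 ± 2.70 FPKM with control siRNA (SD, n = 4 each) and rose (log2 fold change 0.20, limma adjusted p = 0.00289). Mmp14, a membrane-bound protease that activates Mmp2, averaged 238 ± 14.4 FPKM with Fto siRNA and 344 ± 10.3 FPKM with control siRNA (SD, n = 4 each) and fell (-0.53, limma adjusted p = 8.6e-05). Mmp2, which can cut the ends of Cxcl12 and Ccl7, fell by 0.22 on the log2 scale (limma adjusted p = 0.00369), and the gelatinase gene Mmp9 rose by 0.32 (0.00116). Dpp4, which clips Cxcl12, was listed at 0 in all 8 libraries.

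Of 12 genes of gp130 signalling, all were tested, 1 rose and 1 fell, beside 6.97% higher and 12.3% lower of all tested genes. Their median log2 fold change was 0.01. Ptpn11, which encodes the phosphatase SHP2 that binds gp130, averaged 37.0 ± 0.337 FPKM with Fto siRNA and 48.1 ± 2.47 FPKM with control siRNA (SD, n = 4 each) and fell (log2 fold change -0.37, limma adjusted p = 0.00028). Pias3, an inhibitor of STAT3, rose by 0.16 on the log2 scale (limma adjusted p = 0.0268), a call lost without Fto siRNA replicate 1, 3 or 4 or control siRNA replicate 1 or 2 (up to 0.0821). The Pias3 locus overlaps that of Nudt17.

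Of 17 receptors and adaptors of the IL-1, TNF and Toll pathways, which switch on many chemokine genes, 5 fell and 0 rose, with a median log2 fold change of -0.03, beside 12.3% lower and 6.97% higher and a median of -0.02 over all tested genes. Tlr4, the receptor of lipopolysaccharide, averaged 4.53 ± 0.206 FPKM with Fto siRNA and 6.37 ± 0.967 FPKM with control siRNA (SD, n = 4 each), with -0.44 as its log2 fold change (limma adjusted p = 0.00986). The kinase gene Irak4 fell by 0.23 on the log2 scale (limma adjusted p = 0.0125), and the calls of Tlr4 and Irak4 held in every alternative tried. The receptor of double-stranded RNA Tlr3 (-0.25, limma adjusted p = 0.0302) and the kinase gene Ripk1 (-0.13, 0.0308) fell too, as did Il1rl1, the receptor of Il33 (-0.31, 0.0391). The call of Tlr3 was lost without Fto siRNA replicate 1 or 4 or control siRNA replicate 1 or 4 and with no filter on low values (up to 0.0814). That of Ripk1 was lost without the same libraries or control siRNA replicate 2 and under both other scalings. That of Il1rl1 was lost in 10 of 17 alternatives, among them those without Fto siRNA replicate 2, 3 or 4 or control siRNA replicate 1, 2 or 4 (up to 0.1). Of 10 regulators of cytokine mRNA stability, such as the AU-rich element binders of the Zfp36 family, 9 were tested and 0 were called, with a median log2 fold change of 0.05.

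Markers of other cell types that could supply chemokines were low. The 10 macrophage and monocyte markers summed to 15.6 to 17.5 FPKM with Fto siRNA and 18.0 to 25.7 FPKM with control siRNA, and 3 of the 10 were tested. Lyz2, the lysozyme gene, made up most of both sums, at 11.6 ± 0.492 FPKM with Fto siRNA and 16.7 ± 2.38 FPKM with control siRNA (SD, n = 4 each), and fell (log2 fold change -0.50, limma adjusted p = 0.00316). The other tested markers of that list, Cd68 (log2 fold change 0.21, limma adjusted p = 0.404) and Aif1 (0.02, 0.955), were not called, and Csf1r, below the filter, was higher in each Fto siRNA library than in any control siRNA library. From the same macrophage and monocyte list, Emr1, Ptprc and Itgam were at or near 0 in both groups. Itgam was at most 0.0119 FPKM with Fto siRNA and listed at 0 with control siRNA, while Aif1 averaged 2.68 FPKM with Fto siRNA and 2.69 FPKM with control siRNA. The 6 endothelial markers summed to at most 0.615 FPKM with Fto siRNA and 0.507 FPKM with control siRNA, and the 6 lymphocyte markers to at most 0.0332 FPKM with Fto siRNA and 0.0855 FPKM with control siRNA. The 8 markers of mature adipocytes summed to 31.8 to 37.0 FPKM with Fto siRNA and 34.2 to 49.8 FPKM with control siRNA, with 0 of 3 tested called. Plin4 (log2 fold change -0.08, limma adjusted p = 0.387) made up most of both sums, and its locus overlaps that of Hdgfrp2. The other tested markers were Adipoq (-0.77, 0.163) and Cidec (-0.44, 0.426). Both were highest in control siRNA replicate 4, at 9.19 and 3.26 FPKM. Of the 11 fibroblast and preadipocyte markers 10 were tested, 5 rose and 2 fell, beside 6.97% higher and 12.3% lower of all tested genes. Ly6a, which encodes the stem cell antigen Sca-1, averaged 227 ± 15.02 FPKM with Fto siRNA and 147 ± 5.04 FPKM with control siRNA (SD, n = 4 each) and had the largest rise of the 5 (log2 fold change 0.63, limma adjusted p = 4.3e-05). Thy1 (0.29, limma adjusted p = 0.0022) and the collagen genes Col1a1 (0.24, 0.0473), Col3a1 (0.22, 0.0378) and Col1a2 (0.22, 0.0222) rose, while the growth factor receptor genes Pdgfra (-0.21, 0.00451) and Pdgfrb (-0.14, 0.0206) fell. The part of these marker shifts in the chemokine values was not tested.

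The genes whose profile over the 8 libraries was most like that of a called member were found by the root mean square difference of log2 profiles, each taken from its own mean. For Cxcl12, whose own root mean square deviation was 0.18, they were Bre, Ccdc53 and Imp3, at 0.0324 to 0.0365. For Ccl2 (0.18) they were Casp12, Angpt1 and Serpinb9, at 0.0396 to 0.0518. Casp12 averaged 26.0 FPKM with Fto siRNA and 33.2 FPKM with control siRNA, and Angpt1, an angiopoietin, 34.0 FPKM with Fto siRNA and 43.7 FPKM with control siRNA. For Cxcl1 (0.16) they were Ccdc56, Gsto1 and Fam198a, at 0.0420 to 0.0478. Those of Cxcl5 (0.14) were Fhl2, 2010204K13Rik and Aldh1a7, at 0.0406 to 0.0445. Csf1 varied the least (0.073), and its nearest were Crot, Cyp1b1 and 9430008C03Rik, at 0.0121 to 0.0224. None of the genes most like a member is a chemokine or a cytokine gene of the lists. Fam198a, 2010204K13Rik, Aldh1a7, Cyp1b1 and 9430008C03Rik were not called.

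In the authors' deposited table the linear folds of the means, Fto siRNA over control siRNA, were 0.79 for Cxcl12, Ccl2 and Ccl8, 0.85 for Cxcl1, 0.86 for Cxcl5, 0.92 for Csf1, 0.94 for Cx3cl1, 1.07 for Ccl7, 0.89 for Lif and 1.53 for Il6. The authors' deposited table gave an unadjusted p-value of 0.00163 for Cxcl12, 0.00123 for Ccl2, 0.00549 for Csf1 and 0.16 for Il6, from their test, the form of which no source used here gives.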

How the data were processed

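RNA-seq of 8 libraries was deposited as 1 table per library. The submitters' processing notes name TopHat2 2.0.11, Cufflinks 2.2.1 and the mm9 build. The tables hold FPKM with lower and upper interval bounds, per the file headers. The authors also deposited a compiled table with a linear fold and a p-value per gene. No source used here says whether the libraries kept strand, so overlapping genes cannot be told apart. Loci are as deposited, counted from 1.

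FPKM are not counts, so no count test was run. Fragments behind a value were worked out from the deposited interval, and such errors cover counting only. The comparison of the groups used limma 3.58.1 in R 4.3.3 on log2(FPKM + 0.5), with a trend in the prior variance, over 11398 genes with a mean of at least 1 FPKM, and the fit was tested on simulated data. Single values used exact two-sided permutation tests over 70 arrangements (Python 3.11.15, numpy 2.4.6, scipy 1.17.1, pandas 2.3.3; plots with matplotlib 3.10.9). Promoters came from RefSeq windows of GRCm38.p6 and the longest 3′ UTR of at least 50 bases per gene from GENCODE M21, for sequence only.

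Named are the 10 members, Fto, the receptors, up to 4 called genes per other list, the 3 genes most like each called member and the tested neighbours in the chemokine clusters. Genes named beyond that rule, such as those listed at 0 or not called, were chosen after their values were seen. A gene that the rule names is not reported here. The members, the lists and the motifs were chosen with earlier results of these data known. Alternatives changed the pseudocount, filter, scaling, prior variance, replicate block and Cufflinks status and left out each library. Within a group, the median gene differed between 2 libraries by 0.897 to 1.52 standard errors, and no library was counted as a repeat.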

Additional observations from a re-analysis of the deposited data

Results flagged for a closer look

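Of 65 groups of 4 values checked, 1 held a library far from the rest, where chance flags about 1 in 20 groups. Irak4 in control siRNA replicate 3 was at 5.68 FPKM, against 5.86 to 5.88 FPKM in the other control siRNA libraries, a gap of 0.868 of the group's range, above Dixon's critical value for 4 samples. It lies above all 4 Fto siRNA libraries, and Irak4 was called lower in every alternative tried.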

How the results depend on the processing

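The count of members that fell was 5 in the values reported, 3 with no filter on low values (Cxcl12, Ccl2 and Csf1), 2 with no trend in the prior variance (Cxcl12 and Ccl2) and 2 to 5 when 1 library was left out. The count that rose was 0 in every alternative. Genes of the 8 other lists called higher numbered 5, and 3 to 5 with 1 library left out, while those called lower numbered 12, and 8 to 10. Over all tested genes the calls split into 794 higher and 1401 lower, 1081 and 1220 with median-ratio scaling and 1086 and 1207 with quantile normalization. No called value changed sign under an alternative.

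The labels do not say whether replicate numbers pair the libraries. The correlations of same-numbered libraries' deviations from their group means were 0.0736, -0.0402, -0.19 and -0.0895. Such values cannot show whether a culture or a day was shared. With the replicate block 4 members were lower, Cxcl12, Cxcl5, Ccl2 and Ccl8, with Ccl8 called (limma adjusted p = 0.034) and Cxcl1 (0.0796) and Csf1 (0.0572) not called. Of the called genes of the other lists, Cxcl16, Ccl9, Lifr, Tlr3 and Ripk1 (limma adjusted p = 0.0838) were not called with the block. The values of Il6, Lif and Ccl8 rest on few fragments. The cause of these changes was not tested.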
